A study of Mus musculus with 10 samples.

Results

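The transcripts described here are those of the inflammasome and of the cytokines that it releases, with the proteins that hold these cytokines in check. The 9 genes were chosen by function and found by their symbol in each library's table, and they are 9 of the 24421 gene symbols shared by all libraries. They comprise the sensor Nlrp3, the adaptor Pycard (ASC), the inflammatory caspases Casp1 and Casp4, the pore-forming Gsdmd (gasdermin D), the cytokines Il1b and Il18, the IL-1 receptor antagonist Il1rn and the IL-18 binding protein Il18bp. RNA had been sequenced from Ly6Chigh monocytes sorted from the spleen on day 5 after surgery.

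In this pathway, NF-κB signalling raises the transcripts of Nlrp3 and of the IL-1β precursor. A second signal then drives NLRP3 and ASC to assemble, and caspase-1 in that assembly cleaves the precursors of IL-1β and IL-18 and cuts gasdermin D, which opens pores in the membrane. IL-1 receptor antagonist occupies the IL-1 receptor without signalling, and IL-18 binding protein captures secreted IL-18. Monocytes are major producers of IL-1β after myocardial infarction (MI). Transcript levels do not show whether a precursor was cleaved or a cytokine secreted.

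There were 10 libraries in 3 groups. C57BL/6 wild-type mice after a sham thoracotomy (WT sham) gave replicates 1, 2 and 3, wild-type mice after permanent ligation of the LAD, a main artery of the left ventricle (WT MI), gave replicates 2, 3 and 4, and Foxp3DTR mice after the same ligation (Foxp3DTR MI) gave replicates 1 to 4. The mice were males of 8 to 10 weeks of age. Foxp3DTR mice express the human diphtheria toxin receptor from the Foxp3 locus, so that diphtheria toxin depletes regulatory T cells (Tregs), incompletely, in otherwise intact animals. The protocol gives 500 ng of toxin on days 2 and 1 before surgery and 250 ng on day 2 after it. The labels do not give the toxin for each library, although the study describes toxin-treated WT mice as its controls after MI. No Foxp3DTR group after sham surgery was analysed here, so that genotype and Treg depletion cannot be told apart. The labels do not tie libraries to single mice, whereas the study counts its RNA sequencing replicates as animals. For WT MI, 3 libraries were analysed here. The p-values measure the spread between these libraries. Cells had been depleted of T and B cells and sorted as CD11b+ Ly6G- F4/80+ Ly6Chigh CD115+.

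Library depth, recovered from the deposited coverage and FPKM, was 3.13 to 8.40 in units of 1e6 reads, and the lowest was that of WT sham replicate 2. These depths are inferred from the deposited values, and the study states a larger number of sequenced reads. The 8 monocyte and sort markers (among them Ly6c2, Ccr2 and Csf1r) were detected in every library and summed to 4341 to 6885 scaled TPM in WT sham, 6108 to 7462 in WT MI and 7542 to 10222 in Foxp3DTR MI. TPM, transcripts per 1e6 transcripts, were divided by 1 factor per library between 0.856 and 1.14 and are called scaled TPM. Transcripts of other cells were present too. The 15 neutrophil markers summed to 578 to 1480 scaled TPM in WT sham, 372 to 600 in WT MI and 1226 to 2803 in Foxp3DTR MI, and Retnlg, Stfa2l1, Stfa2 and Stfa3 were at 0 in all WT MI libraries. The 12 T cell markers summed to 23.0 to 230, 19.3 to 24.2 and 51.9 to 180 scaled TPM in the same order, with Cd3e, Cd8b1 and Thy1 at 0 in WT MI replicate 4. WT sham replicate 3 held the highest neutrophil sum and the highest T cell sum among the WT libraries. In bulk libraries, a change in the share of a cell type and a change in its RNA per cell cannot be told apart.

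Of the 9 genes, only Il18bp passed the test between Foxp3DTR MI and WT MI, and it was higher in Foxp3DTR MI. Its mean was 58.2 ± 9.44 scaled TPM (SD, n = 4) in Foxp3DTR MI against 20.9 ± 5.58 (SD, n = 3) in WT MI. A gene was called when its limma adjusted p was under 0.05, and by that rule 0.688% of the 12938 genes tested were higher in Foxp3DTR MI and 0.433% lower. By the plainer rule that the lowest library of one group lies above the highest of the other, Pycard, Casp1, Il1rn and Il18bp were higher in Foxp3DTR MI and Il1b and Il18 lower. These are 4 and 2 of the 9 genes, where 9.97% of all genes tested were separated in this way upwards and 9.02% downwards. The median log2 fold change was 0.22 over the 9 genes and 0.0008 over all genes tested. All 9 genes passed the filter of at least 1 TPM in at least 3 libraries.

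**Figure D1:**
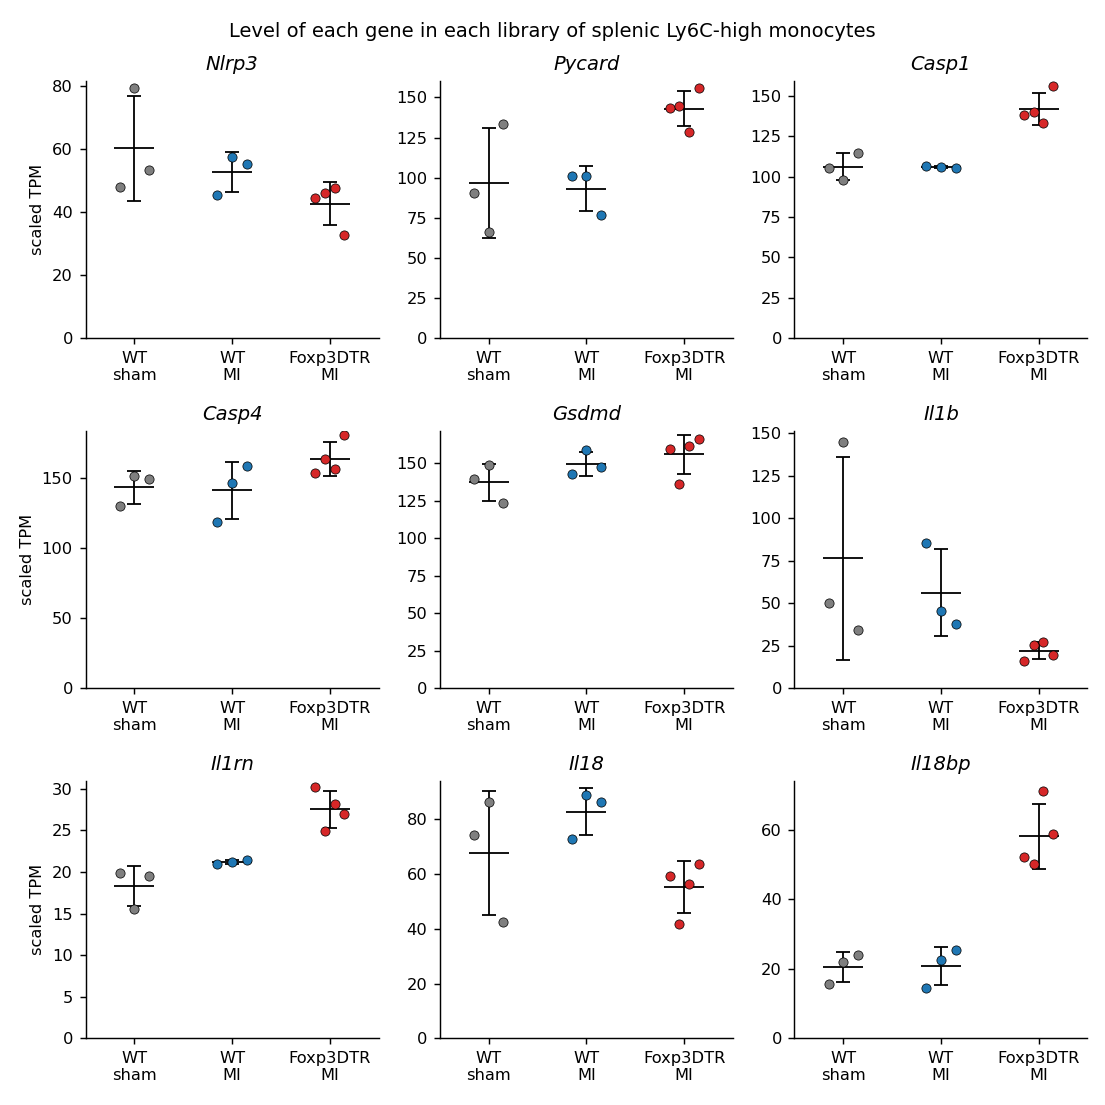
Scaled TPM of each of the 9 genes (vertical axis, from 0) in each library of the 3 groups (horizontal axis); points are libraries, long bars group means and whiskers 1 SD. All 4 Foxp3DTR MI libraries lie above the WT libraries for Il18bp (50.2 to 71.2 against 14.6 to 25.3) and below them for Il1b (15.9 to 27.2 against 34.5 to 145).

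Il18bp encodes a soluble decoy that binds IL-18 and keeps it from its receptor. The gene lies at chr7:102015077-102018155 on the minus strand (mm10). Its level was 52.3, 50.2, 71.2 and 58.9 scaled TPM in Foxp3DTR MI replicates 1 to 4. It was 14.6, 22.6 and 25.3 in WT MI replicates 2 to 4, and 15.7, 22.1 and 23.9 in WT sham replicates 1 to 3. The lowest Foxp3DTR library was about double the highest WT library, and the WT MI and WT sham libraries covered the same range. The ratio of the group means was 2.79, and the log2 fold change from WT MI was 1.46 (SE 0.21, 95% interval 1.00 to 1.92, adjusted p = 0.0200), the rank 17 by p among all genes tested. The call rested on single libraries, since the adjusted p was 0.0646 without WT MI replicate 2, 0.0538 without WT MI replicate 3, 0.0501 without Foxp3DTR MI replicate 1 and 0.0684 without Foxp3DTR MI replicate 3. Without a filter it was 0.0542. The fold change stayed between 1.23 and 1.69 under all 22 alternatives.

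The promoters of Il18bp, Il1b and Casp1 are shown because these are the 3 members with the lowest p, the strongest fall and the smallest relative spread in WT MI. Each window runs from 250 bases before to 50 bases after the RefSeq start site (GRCm38.p6), which need not be the start of the deposited gene model. Capitals mark matches, on either strand, to the PU.1 core GGAAGT or to the TATA letters TATAAA.
Il18bp, chr7:102018183-102018482, minus strand: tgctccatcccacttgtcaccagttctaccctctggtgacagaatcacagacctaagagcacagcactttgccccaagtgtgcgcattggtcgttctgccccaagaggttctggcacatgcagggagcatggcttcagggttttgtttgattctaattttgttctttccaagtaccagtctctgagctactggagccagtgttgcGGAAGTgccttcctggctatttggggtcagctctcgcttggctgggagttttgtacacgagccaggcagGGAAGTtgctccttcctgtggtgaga
Il1b, chr2:129371090-129371389, minus strand: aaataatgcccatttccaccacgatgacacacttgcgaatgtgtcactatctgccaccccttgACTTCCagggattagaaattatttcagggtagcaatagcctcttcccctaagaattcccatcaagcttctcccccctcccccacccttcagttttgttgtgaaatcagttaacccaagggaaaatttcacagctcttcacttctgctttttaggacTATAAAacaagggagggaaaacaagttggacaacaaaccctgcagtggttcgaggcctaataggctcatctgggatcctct
Casp1, chr9:5298267-5298566, plus strand: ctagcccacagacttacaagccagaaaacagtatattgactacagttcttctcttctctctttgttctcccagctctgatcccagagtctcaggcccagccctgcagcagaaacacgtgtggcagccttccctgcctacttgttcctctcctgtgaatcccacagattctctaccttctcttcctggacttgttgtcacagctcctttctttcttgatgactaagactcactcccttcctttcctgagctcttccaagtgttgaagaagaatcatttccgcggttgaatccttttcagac

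RefSeq windows were found for 8 of the 9 genes, 12 windows in all, and none was found for Gsdmd. The GAS letters TTCNNNGAA (8.30% of the 32851 windows of all genes) and the ISRE core letters GAAANNGAA (8.56%) were in none of the 12 windows. The kappa B letters GGANTTTCC (1.25% of all windows) were in 1 window of Nlrp3. The PU.1 core (23.8% of all windows) was in windows of Pycard, Casp4, Il1b and Il18bp, with a pair of matches for Il18bp at 45 bases before and 24 bases after the start site. TATAAA (13.6% of all windows), a motif added after the windows had been read, stood 31 bases before the start site of Il1b and was also in windows of Il18 and Il1rn. These matches describe letters only, and a window without a match says nothing of the factor.

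Il18, the cytokine that Il18bp neutralises, is made as an inactive precursor and drives interferon-γ production by T and NK cells. The gene lies at chr9:50565368-50581837 on the plus strand. Its level was 59.4, 41.6, 56.3 and 63.7 scaled TPM in Foxp3DTR MI and 72.9, 89.0 and 86.3 in WT MI. In WT sham it was 74.2, 86.2 and 42.3. All Foxp3DTR libraries lay below all WT MI libraries, but WT sham replicate 3 lay among the Foxp3DTR libraries. The log2 fold change from WT MI was -0.59 (SE 0.23, 95% interval -1.09 to -0.09, adjusted p = 0.216) and did not pass the test. The 8 conventional dendritic cell markers summed to 41.9 to 62.8 scaled TPM in Foxp3DTR MI, 84.6 to 111 in WT MI and 79.7 to 158 in WT sham. From WT MI to Foxp3DTR MI, Dpp4 was called lower (log2 fold change -0.74, adjusted p = 0.0349), a call not followed under the alternatives. Flt3 (-1.86, adjusted p = 0.0722) and Cd209a (-1.43, adjusted p = 0.224) were not called. The rest of the list, also not called, was at 0.58 (Ccr7), 0.26 (Xcr1), 0.08 (Zbtb46), -0.03 (Itgax) and -0.10 (Clec9a). The list had 3 positive and 5 negative values with a median of -0.07. The 9 splenic macrophage markers summed to 140 to 202 scaled TPM in Foxp3DTR MI, 235 to 309 in WT MI and 204 to 280 in WT sham. Hmox1 alone averaged 124 in Foxp3DTR MI and 203 in WT MI. Of the 8 macrophage markers tested, 0 were called, with 3 positive and 5 negative values and a median of -0.16. The part of either marker list in the level of Il18 was not tested.

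Set against each other within a library, Il18bp and Il18 were at near-equal levels per length in the Foxp3DTR MI libraries and in no WT library. The ratio of Il18bp to Il18 was 0.880, 1.21, 1.26 and 0.925 in Foxp3DTR MI replicates 1 to 4. It was 0.200, 0.254 and 0.294 in WT MI, and 0.212, 0.257 and 0.566 in WT sham. Every Foxp3DTR library lay above every WT library, and the highest WT ratio was again that of WT sham replicate 3. The ratio was not tested, as it follows from the levels of the 2 genes.

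Il1b encodes the precursor of IL-1β, the main inflammatory cytokine of the pathway. The gene lies at chr2:129364580-129371120 on the minus strand. Its level was 15.9, 25.6, 27.2 and 19.9 scaled TPM in Foxp3DTR MI and 85.7, 45.2 and 38.0 in WT MI. In WT sham it was 50.1, 145 and 34.5. Il1b was thus lower in each Foxp3DTR library than in any WT library, while the WT libraries themselves covered a range of over 4-fold. The mean was 22.1 ± 5.21 (SD, n = 4) in Foxp3DTR MI, 56.3 ± 25.7 (SD, n = 3) in WT MI and 76.4 ± 59.7 (SD, n = 3) in WT sham. The log2 fold change from WT MI was -1.25 (SE 0.44, 95% interval -2.22 to -0.28) with an unadjusted p of 0.0165 and an adjusted p of 0.182, so that the difference did not pass the test. A fit on the 2 groups alone gave an adjusted p of 0.0487. That fit called 337 genes higher and 241 lower, against 89 and 56 in the reported fit. Il1b passed in only this 1 of the 22 alternatives, and its adjusted p reached 0.334 in another. The highest value, that of WT sham replicate 2, came from the library of lowest depth. The neutrophil markers had a higher sum in all 4 Foxp3DTR libraries than in all WT MI libraries. Of the 14 tested, 11 were separated upwards, where 9.97% of all genes tested were. Mmp8 and Stfa2 overlapped, and Csf3r overlapped with a log2 fold change of -0.27. Ltf, Retnlg, Cxcr2, Mmp9 and Stfa2l1 were below 1 TPM in all WT MI libraries and passed the filter through the other groups. Their part in the level of Il1b was not tested.

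Il1rn encodes the receptor antagonist that competes with IL-1β, and lies at chr2:24336860-24351491 on the plus strand. Its level was 30.2, 24.9, 28.1 and 27.0 scaled TPM in Foxp3DTR MI. It was 20.9, 21.2 and 21.4 in WT MI and 19.8, 15.5 and 19.5 in WT sham. The 3 groups did not overlap, with WT sham lowest, and the WT MI libraries were nearly equal. The log2 fold change from WT MI was 0.36 (SE 0.12, 95% interval 0.09 to 0.63, adjusted p = 0.168) and did not pass the test.

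The ratio of Il1b to Il1rn was 0.528, 1.03, 0.967 and 0.736 in Foxp3DTR MI. It was 4.10, 2.13 and 1.78 in WT MI, and 2.52, 9.34 and 1.77 in WT sham. The cytokine transcript exceeded that of its antagonist in each WT library, and the Foxp3DTR ratios all lay at or below about 1. This ratio was not tested either. For both cytokines, the level relative to the antagonist was therefore lowest in Foxp3DTR MI, and in each of the 4 libraries.

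**Figure D2:**
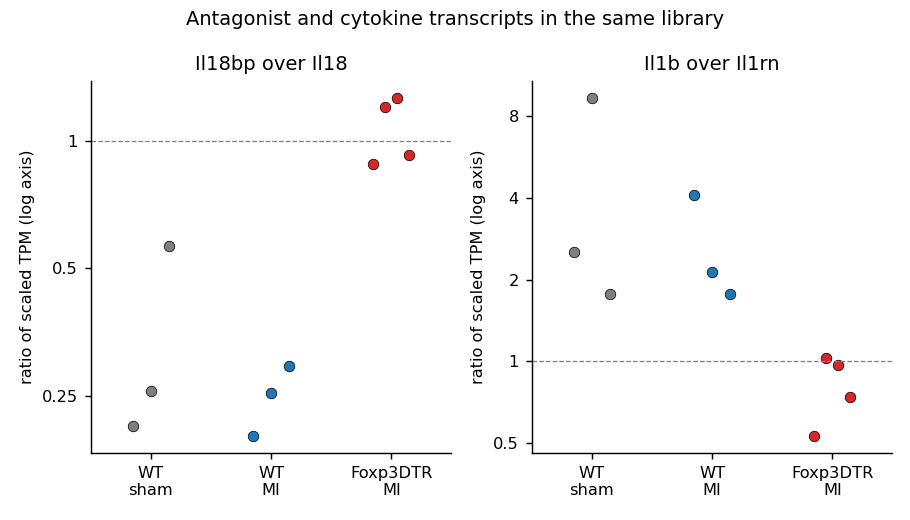
Ratio of scaled TPM of Il18bp to Il18 (left) and of Il1b to Il1rn (right) in each library of the 3 groups, on log axes; points are libraries and the dashed line marks equal levels. The Foxp3DTR MI points lie between 0.880 and 1.26 on the left, above all WT points, and between 0.528 and 1.03 on the right, below all WT points.

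Nlrp3, the sensor of the best studied inflammasome, lies at chr11:59542686-59566956 on the plus strand. Its level was 44.4, 45.8, 47.6 and 32.5 scaled TPM in Foxp3DTR MI and 45.5, 57.4 and 55.0 in WT MI. In WT sham it was 47.9, 79.1 and 53.2. The Foxp3DTR and WT MI libraries overlapped, and the highest level was that of WT sham replicate 2, as for Il1b. The log2 fold change from WT MI was -0.31 (SE 0.19, 95% interval -0.72 to 0.11, adjusted p = 0.424).

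Pycard encodes ASC, which bridges the sensor and caspase-1, and lies at chr7:127991373-127993867 on the minus strand. Its level was 143, 144, 129 and 156 scaled TPM in Foxp3DTR MI and 101, 101 and 76.7 in WT MI. In WT sham it was 90.7, 66.0 and 133. Foxp3DTR MI and WT MI did not overlap, whereas WT sham replicate 3 lay within the Foxp3DTR range. The log2 fold change from WT MI was 0.62 (SE 0.20, 95% interval 0.17 to 1.07, unadjusted p = 0.0111, adjusted p = 0.157) and did not pass the test. The adjusted p was 0.0468 when WT sham replicate 3, which takes part in the shared estimate of the spread, was left out, and 0.0277 in a fit on the 2 groups alone. Pycard passed in only these 2 of the 22 alternatives, and its adjusted p reached 0.364 in another. Over all genes, these fits called 244 and 337 higher, against 89 in the reported fit.

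Casp1 encodes the protease that matures IL-1β and IL-18, and lies at chr9:5298517-5307281 on the plus strand. Its level was 138, 140.1, 133 and 156 scaled TPM in Foxp3DTR MI. It was 106, 106 and 106 in the 3 WT MI libraries and 106, 98.1 and 115 in WT sham. The lowest Foxp3DTR library lay above the highest WT library, and the WT MI libraries differed by less than 1 scaled TPM. The means were 142 ± 10.1 (SD, n = 4) in Foxp3DTR MI and 106 ± 0.461 (SD, n = 3) in WT MI, with a log2 fold change of 0.41 (SE 0.090, 95% interval 0.22 to 0.61). The unadjusted p was 0.000867 and the adjusted p 0.0564, just outside the threshold. Casp1 passed it in 6 of the 22 alternatives, among them TPM without scaling (0.66, adjusted p = 0.0160), a scaling under which the median of all genes itself shifted by 0.22, and the fits without WT sham replicate 2 (adjusted p = 0.0328) or replicate 3 (adjusted p = 0.0359).

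Casp4 encodes caspase-11, the mouse sensor of cytosolic lipopolysaccharide, and is the neighbour of Casp1 at chr9:5308849-5336791 on the plus strand. Its level was 153, 164, 156 and 180.4 scaled TPM in Foxp3DTR MI and 119, 146 and 158 in WT MI. In WT sham it was 130.1, 151 and 149. The Foxp3DTR and WT MI libraries overlapped, and the log2 fold change was 0.22 (SE 0.12, 95% interval -0.04 to 0.48, adjusted p = 0.355). The ratio of Casp1 to Casp4 was 0.850 to 0.899 in Foxp3DTR MI, 0.667 to 0.896 in WT MI and 0.648 to 0.812 in WT sham.

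Gsdmd encodes gasdermin D, the substrate of both caspases, and lies at chr15:75862339-75867404 on the plus strand. Its level was 159.7, 136, 161 and 166 scaled TPM in Foxp3DTR MI and 143, 159 and 147 in WT MI. In WT sham it was 139, 149 and 124. The 3 groups overlapped. The log2 fold change from WT MI was 0.06 (SE 0.10, adjusted p = 0.812), and its 95% interval of -0.17 to 0.28 was the narrowest but one of the 9 genes.

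**Figure D3:**
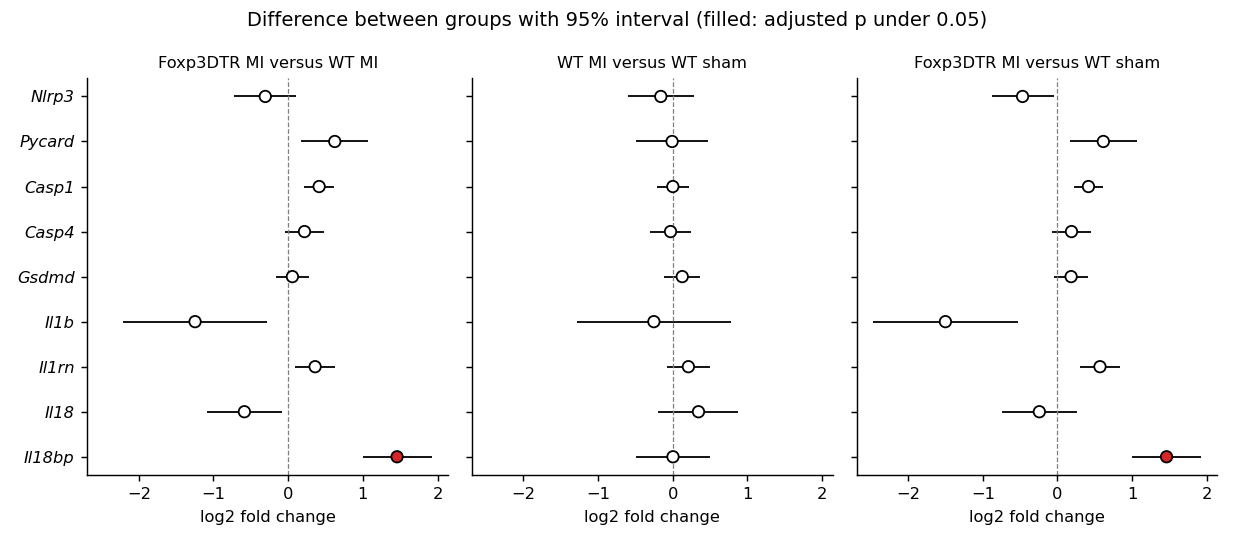
Log2 fold change of scaled TPM (horizontal axis) of the 9 genes in each of the 3 comparisons; circles are limma estimates, lines their 95% intervals, and filled circles passed an adjusted p of 0.05. Il18bp, at 1.46 in both comparisons with Foxp3DTR MI, is the only filled circle, and in WT MI against WT sham every interval includes 0.

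None of these genes differed detectably between WT MI and WT sham, groups whose toxin treatment the labels do not give. Between WT MI and WT sham, 0 of the 12938 genes passed the test (0%), 600 had an unadjusted p under 0.05, and the lowest adjusted p was 0.917. The adjusted p of the 9 genes was 0.960 to 0.999. For Il18bp the log2 fold change was 0.0025 (95% interval -0.49 to 0.50) and for Casp1 0.0005 (95% interval -0.21 to 0.21). For Il1b, with a value of -0.25, the 95% interval of -1.29 to 0.78 was the widest of the 9 genes. Only Il1rn, at 0.21 (95% interval -0.08 to 0.50), had WT MI libraries that all lay above those of WT sham, where 3.18% of all genes tested were separated upwards and 3.73% downwards.

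Foxp3DTR MI and WT sham differ in genotype, Treg depletion and surgery at once. Their comparison shares its Foxp3DTR libraries with that against WT MI and its WT sham libraries with that of WT MI against WT sham. Il18bp was again the only gene called, at 1.46 on the log2 scale (SE 0.21, adjusted p = 0.0292), where 0.386% of all genes tested were called higher and 0.155% lower. Its adjusted p was 0.0873 without WT sham replicate 1, 0.114 without WT sham replicate 2 and 0.0764 to 0.0895 without any 1 of the 4 Foxp3DTR libraries. Without a filter it was 0.0704. Casp1, Casp4, Il1rn and Il18bp were separated upwards and Nlrp3 and Il1b downwards, 4 and 2 of the 9 genes against 9.80% and 8.44% of all genes tested. Il1rn had a log2 fold change of 0.57 (adjusted p = 0.0735) and Casp1 of 0.42 (adjusted p = 0.0773). Il1b had a value of -1.50 (adjusted p = 0.134), Nlrp3 of -0.47 (adjusted p = 0.221), Pycard of 0.61 (adjusted p = 0.158) and Casp4 of 0.19 (adjusted p = 0.416). Gsdmd had a value of 0.18 (adjusted p = 0.365) and Il18 of -0.24 (adjusted p = 0.590). Without WT sham replicate 3, the library with the highest neutrophil and T cell sums of the WT libraries, Pycard (0.87, adjusted p = 0.0197), Casp1 (0.47, adjusted p = 0.0327), Il1rn (0.62, adjusted p = 0.0394) and Il1b (-1.93, adjusted p = 0.0376) passed the test as well. Calls rose over all genes in that fit, to 412 higher and 224 lower of 12772 tested, against 50 and 20 in the reported fit. The added calls are therefore not particular to these genes.

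The order of the levels, compared as scaled TPM per length of transcript, differed between the groups. In WT MI it ran from Gsdmd, Casp4, Casp1, Pycard, Il18, Il1b and Nlrp3 down to Il1rn and Il18bp, with group means from 149.5 to 20.9 scaled TPM. Neighbours in this order overlapped between libraries except Casp4 and Casp1, Casp1 and Pycard, and Nlrp3 and Il1rn. In Foxp3DTR MI the order was Casp4, Gsdmd, Pycard, Casp1, Il18bp, Il18, Nlrp3, Il1rn and Il1b, with means from 164 to 22.1 scaled TPM. There the 4 genes of the protease and pore machinery overlapped and lay above all others, Il18bp stood beside Il18, and Il1b was the last. WT sham began with Casp4, Gsdmd, Casp1 and Pycard and ended with Il18bp (20.6 ± 4.32 scaled TPM, SD, n = 3) and Il1rn (18.3 ± 2.42, SD, n = 3), and Il1b (76.4) stood there between Pycard and Il18.

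The rest of the pathway was followed through lists of genes. Of 20 other inflammasome sensors and adaptors tested, 1 was called higher in Foxp3DTR MI than in WT MI and 0 lower, and the median log2 fold change was -0.04. Over all genes tested, 0.688% were called higher and 0.433% lower, and the median was 0.0008. The gene was Gbp5, a guanylate-binding protein that promotes NLRP3 assembly and a gene that the study itself picked out from these libraries, at 229 ± 46.1 scaled TPM (SD, n = 4) against 41.7 ± 20.6 (SD, n = 3). Its log2 fold change was 2.52 (SE 0.44, adjusted p = 0.0332), and its adjusted p was between 0.0538 and 0.0990 when any 1 library of the 2 groups was left out. The call of Gbp5 was also lost without a filter (adjusted p = 0.0755) and without a variance trend (adjusted p = 0.0555). Naip1, Naip2 and Naip5, which detect bacterial flagellin and secretion system proteins for the NLRC4 inflammasome, were named after their values were seen. Their Foxp3DTR libraries all lay below those of WT MI, with log2 fold changes of -0.64 (adjusted p = 0.100), -0.43 (adjusted p = 0.100) and -0.67 (adjusted p = 0.0651), none past the test, where 9.02% of all genes tested were separated downwards. Naip6, the other gene of this family on the list, overlapped between the groups (-0.55, adjusted p = 0.163). These genes are related paralogs, between which reads may be split.

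Of 16 tested executors and regulators of pyroptosis and other lytic death, 2 were called higher and 0 lower, with a median log2 fold change of 0.30. The shares over all genes tested were again 0.688% higher and 0.433% lower. Mlkl, the pore former of necroptosis, was at 70.2, 81.3, 77.5 and 76.4 scaled TPM in Foxp3DTR MI and 30.9, 37.0 and 34.5 in WT MI. All Foxp3DTR libraries lay above all WT MI libraries (log2 fold change 1.14, SE 0.15, adjusted p = 0.0163). Casp12, an inflammatory caspase gene beside Casp1 and Casp4, was at 19.0, 18.7, 21.2 and 16.5 scaled TPM in Foxp3DTR MI and 3.36, 6.87 and 3.44 in WT MI (log2 fold change 1.89, SE 0.28, adjusted p = 0.0200). The adjusted p of Mlkl was between 0.0503 and 0.0684 without WT MI replicate 2 or 3 or Foxp3DTR MI replicate 2 or 3. That of Casp12 was between 0.0594 and 0.0847 without WT MI replicate 2 or 4 or Foxp3DTR MI replicate 1, 2 or 3, and 0.0548 without a filter. Casp12 thus differed between the groups by a larger factor than either of its neighbours, a comparison of sizes that was not tested.

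Among the other IL-1 family ligands, 1 of 7 in the tables passed the filter, Il1f9, which encodes IL-36γ. It was at 2.85, 7.32, 3.56 and 4.42 scaled TPM in Foxp3DTR MI, 0.514, 0.201 and 0.344 in WT MI and 0.927, 0.501 and 3.62 in WT sham. It was called higher in Foxp3DTR MI than in WT MI (log2 fold change 1.98, SE 0.40, adjusted p = 0.0498). No WT MI library reached 1 TPM, and Il1f9 passed the filter through the Foxp3DTR libraries and WT sham replicate 3. The direction of its call is therefore not independent of the filter. WT sham replicate 3 lay within the Foxp3DTR range, the call was lost without any 1 library of the 2 groups (adjusted p 0.0893 to 0.140) and with a replicate block (adjusted p = 0.100), it held in 8 of 21 alternatives, and the neutrophil sum was high in the same libraries, a link that was not tested. Of 7 IL-1 family receptors tested, 0 were called, 5 had positive and 2 negative log2 fold changes, and the median was 1.00, which is the value of Il1r2. Among the positive genes, Il1rl1 was below 1 TPM in all WT MI libraries and passed the filter through the other groups. Il1rl2 (0.822 to 1.39 scaled TPM) and Il18r1 (0.858 to 2.44) were also low in WT MI. Il18r1 and Il18rap, the chains of the IL-18 receptor, were named after their values were seen. Their log2 fold changes were 1.54 (adjusted p = 0.186) and 1.01 (adjusted p = 0.271), and the groups overlapped for both. The 9 NK cell markers summed to 78.1 to 176 scaled TPM in Foxp3DTR MI, 27.9 to 64.5 in WT MI and 52.8 to 174 in WT sham, and their part in the level of these receptors was not tested. The decoy receptor Il1r2 was at 43.2, 20.4, 34.8 and 62.2 scaled TPM in Foxp3DTR MI and 10.9, 6.26 and 79.5 in WT MI, so that 1 WT MI library exceeded all others (log2 fold change 1.00, adjusted p = 0.477, with a range of 0.31 to 2.04 over the 22 alternatives). The shared receptor chain Il1rap was at 22.7 ± 1.17 scaled TPM (SD, n = 4) and 24.0 ± 1.02 (SD, n = 3) (adjusted p = 0.762). Of 16 genes of signalling below the receptor, 0 were called and the median was 0.046. The adaptor Myd88 was at 242 ± 20.2 scaled TPM (SD, n = 4) in Foxp3DTR MI and 232 ± 25.7 (SD, n = 3) in WT MI, and the kinase adaptor Tab2 at 289 ± 19.1 and 379.8 ± 6.55 (adjusted p = 0.822 and 0.126).

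In WT MI against WT sham, 0 genes were called in each of these lists. Against WT sham, Foxp3DTR MI had calls in the death list alone, namely Mlkl (1.18, SE 0.15, adjusted p = 0.0209) and Casp12 (1.60, SE 0.28, adjusted p = 0.0464). Of all genes tested, 0.386% were called higher there and 0.155% lower. The call of Mlkl was lost with a replicate block (adjusted p = 0.0503). Both lost the call without WT sham replicate 1 or 2 or any 1 Foxp3DTR library, with an adjusted p of 0.0637 to 0.0857 for Mlkl and 0.103 to 0.175 for Casp12. That of Casp12 was also 0.0514 without WT MI replicate 2 and 0.0534 without WT MI replicate 4. Processing mattered too. For Casp12 the adjusted p was 0.0574 with a pseudocount of 0.1, 0.0906 without a filter and 0.0621 without a variance trend. On the 2 groups alone it was 0.0612 for Casp12 and 0.0544 for Mlkl. Casp12 was called in 10 of the 22 alternatives and Mlkl in 14.

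**Figure D4:**
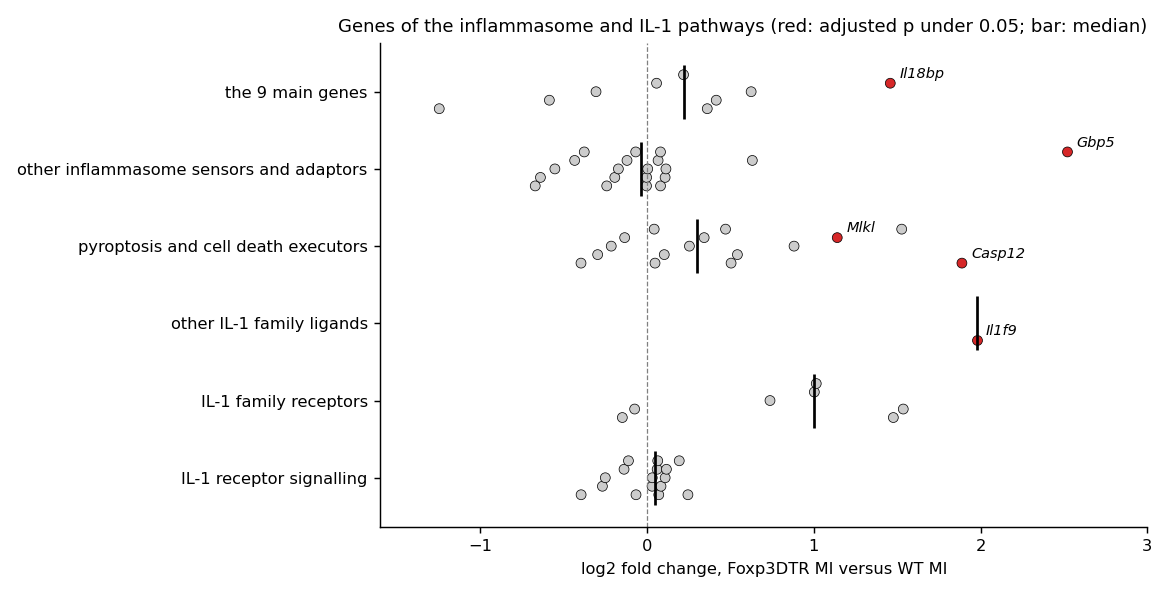
Log2 fold change of scaled TPM between Foxp3DTR MI and WT MI (horizontal axis) for each tested gene of the 6 lists (rows); circles are genes, spread vertically for clarity, red circles passed an adjusted p of 0.05 and black bars are list medians. The 5 red circles (Il18bp, Gbp5, Mlkl, Casp12 and Il1f9) are all to the right of 0. Il1f9 was below 1 TPM in every WT MI library and passed the filter through the other groups.

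The genes with the pattern most like each of the 9 were found over the 10 libraries, by the mean absolute difference of centred log2 levels. For Il18bp these were Cd200r4 (0.169), a CD200 receptor family gene, and Wars (0.199), a tryptophanyl-tRNA synthetase. Wars was at 148 scaled TPM in Foxp3DTR MI, 59.8 in WT MI and 62.6 in WT sham on average, and Cd200r4 at 13.8, 4.09 and 3.97. For Il1b they were Kcne3 (0.284) and Ascl2 (0.304), both further away than the neighbours of any other member, and Il1b itself deviated from its mean by 0.703 on average. For Il18 they were Agrn (0.109) and Frmd4a (0.111). For Casp1 they were Sptbn1 (0.058) and Anxa11 (0.059), for Pycard Rfc5 (0.064) and Txndc5 (0.081), and for Il1rn Tsn (0.071) and 2610507B11Rik (0.072). Nlrp3 lay nearest to Gigyf1 (0.062) and Eml5 (0.071), Casp4 to Coro7 (0.062) and Nup153 (0.067), and Gsdmd to Gm608 (0.063) and Actr8 (0.065). None of the 9 genes was among the 2 nearest of another.

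**Figure D5:**
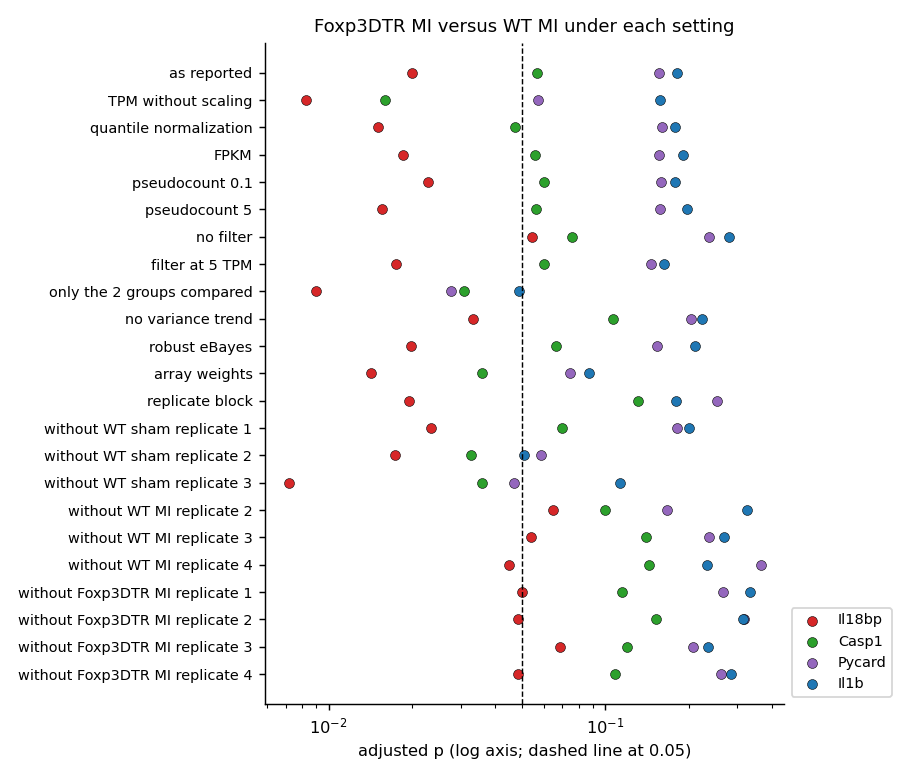
Adjusted p of the difference between Foxp3DTR MI and WT MI (horizontal log axis, dashed line at 0.05) for Il18bp, Casp1, Pycard and Il1b, as reported and under each of 22 alternatives (rows). Il18bp lies left of the line in 17 of the 22 alternatives and Casp1 in 6.

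The number of reads behind these levels was estimated from the coverage and the exon length of the matching transcript, for the 7 genes with a match. Il1rn, Il1b and Il18 rested on the fewest, about 37 to 169, 53 to 247 and 81 to 208 reads per library, with medians of 130.5, 115.5 and 123.5. In the Foxp3DTR MI libraries Il1b rested on 53 to 95 reads. Casp1 rested on 160 to 561 reads, Casp4 on 237 to 628, Gsdmd on 290 to 773 and Nlrp3 on 292 to 628. For Pycard and Il18bp no deposited model matched, and their read number was not estimated.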

How the data were processed

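The members, lists and comparisons were chosen with earlier results of these data known, and the study displays Il18bp and Gbp5 among genes selected from these same libraries, so their direction is not independent evidence. Libraries were made from sorted cells with a low-input kit and read as 50-base single ends. Per the labels, the submitters worked on mm10 with STAR 2.5 and StringTie 1.3.0, besides cutadapt 1.1 and CASAVA 1.4. The authors deposited, per gene and library, the coverage (a signal), FPKM and TPM (summing to 1e6 per library). The counts to which the study's DESeq2 test was applied were not used here, and limma took its place.

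TPM of 1 symbol were summed, divided by a median-of-ratios factor and analysed as log2(scaled TPM + 1), which understates the change of low genes. Genes with at least 1 TPM in at least 3 libraries (12938) entered 1 limma fit (version 3.58.1, R 4.3.3; empirical Bayes with a variance trend) over the 10 libraries, with 3 two-sided contrasts and Benjamini-Hochberg adjustment. The script was tested on simulated data. Library depth came from the ratio of coverage to FPKM, which was constant within 1% for 84.9% to 85.2% of rows. Depth sets counting error only. Reads of overlapping or antisense genes may be shared.

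Named were all 9 genes. Of each pathway list, all called genes up to 4 of lowest p were named or, where none was called, the 2 of highest mean TPM, and for each of the 9 genes the 2 of most similar pattern. Alternatives were other scalings, FPKM, pseudocounts, filters, fits and leaving out each library. Promoters are RefSeq's (GRCm38.p6). Read numbers used GENCODE M21 transcripts matching within 25 bases. No library was left out of the reported fit.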

Additional observations from a re-analysis of the deposited data

How the results depend on the processing

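The 9 genes kept the sign of their change in Foxp3DTR MI against WT MI and against WT sham under all 22 alternatives. In Foxp3DTR MI against WT MI (89 genes higher, 56 lower, of the 9 genes 1 and 0) the counts higher and lower were 488 and 39 with TPM without scaling, which raised the median of all genes by 0.22, 224 and 174 with array weights, 17 and 5 without a filter, 50 and 24 without a variance trend, and 337 and 241 in a fit on the 2 groups alone. Of the 9 genes, the number higher was 3 without scaling, 2 with quantile normalization, 2 with array weights, 0 without a filter and 3 (with 1 lower) on the 2 groups alone. Leaving out 1 library gave 0 to 253 genes higher, 0 to 178 lower, and 0 to 3 of the 9 higher. Both counts were 0 without WT MI replicate 2, where 2424 genes had an unadjusted p under 0.05. In Foxp3DTR MI against WT sham (50 and 20, of the 9 genes 1 and 0) they were 14 and 9 with a pseudocount of 0.1, 7 and 4 without a filter (0 of the 9 genes), 19 and 10 without a trend, and 7 and 3 on the 2 groups alone. Leaving out 1 library gave 2 to 412 higher and 1 to 224 lower, both highest without WT sham replicate 3, and 0 to 4 and 0 to 1 of the 9. In WT MI against WT sham (0 and 0) the 2 groups alone gave 1 and 2, and leaving out 1 library 0 to 1 and 0 to 1. The cause was not tested.

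Replicate numbers are shared between groups. Correlations of the deviations from the group means ran from -0.190 to 0.189 for same-numbered libraries and from -0.196 to 0.176 for others. With so few libraries per group, these values cannot tell whether the numbers mark a pairing. With a replicate block, 68 genes were higher and 13 lower in Foxp3DTR MI against WT MI and 14 and 2 against WT sham, with Il18bp called in both. The block ended the calls of Il1f9 against WT MI (adjusted p = 0.100) and of Mlkl against WT sham (adjusted p = 0.0503). The other calls of Il18bp, Gbp5, Mlkl and Casp12 held, and the call of Dpp4 was not followed under the block.

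In WT MI against WT sham, where no gene was called, signs near 0 turned. They did so without scaling for Casp1 (-0.18), Gsdmd (-0.054) and Il18bp (-0.17), with quantile normalization for Casp1 (-0.054), with array weights for Casp1 (-0.025), Casp4 (0.017) and Il1b (0.017), and with the replicate block for Pycard (0.013), Casp1 (-0.035) and Il18bp (-0.16). Leaving out 1 library gave -0.056 to 0.058 for Casp1, -0.12 to 0.088 for Casp4, -0.17 to 0.23 for Il18bp, -0.68 to 0.34 for Il1b, -0.30 to 0.050 for Nlrp3 and -0.25 to 0.25 for Pycard. In Foxp3DTR MI against WT MI, the uncalled Il1rap turned to 0.16 without scaling, and Myd88 ranged from -0.026 to 0.13 when 1 library was left out.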
